A study of Mus musculus with 745 samples.

Results

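Caveolae are flask-shaped pits of the endothelial surface, and 6 of the 7 genes described here encode proteins that build or cut them. The genes are Cav1, Cav2, Ehd2, Ehd4, Pacsin2, Dnm2 and Mfsd2a, taken by symbol from a table of 20607 symbols, and each matched 1 row. They were read in single brain endothelial cells of 3-month-old mice, isolated by FACS after dissociation of the brain, each cell being 1 sample; 696 cells entered the comparisons and 49 were left out. No genotype, treatment or other age is among these samples, so the comparisons are between cells that carry markers of different vessel segments. The cell titles name 3 sets, and 30.2% of the cells were in Young1, 34.6% in Young2 and 35.2% in AY_Y3. Whether a set is an animal, a pool or a plate is not given in the labels. The main test took the set as a block, which removes level differences shared by all cells of a set. Its p-values thus rest on how unevenly the differences between groups of cells came out from set to set. The source of this unevenness, biological or technical, is not known.

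The caveolins Cav1 and Cav2 form the caveolar coat, and Cav1 is needed for caveolae to form. Ehd2 is a membrane-bound ATPase of the caveolar neck that holds caveolae at the surface, and Ehd4 is its close relative with roles in endosomal traffic. Pacsin2 is an F-BAR protein that bends membrane at the neck, and Dnm2 is the GTPase dynamin 2, which cuts caveolar and clathrin-coated necks. Mfsd2a carries lysophosphatidylcholine lipids across the endothelium, and in mice its loss raises caveolar transcytosis at the blood-brain barrier. Brain capillaries are known for few caveolae, and arterioles of the mouse brain for many.

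Promoter sequence is shown for the Cav1 and Cav2 pair, which are neighbours on chromosome 6, for Ehd2, the caveolar gene whose share of cells lay furthest apart between arterial-marker and capillary-marker cells, and for Mfsd2a, whose share lay the other way. Each line holds the 250 bases before a RefSeq gene start (build GRCm38.p6), 5′ to 3′ on the gene's own strand: Cav1 at chr6:17306085-17306334 on the plus strand, the first of its pair of starts, Cav2 at chr6:17280935-17281184 on the plus strand, Ehd2 at chr7:15967536-15967785 on the minus strand and Mfsd2a at chr4:122961189-122961438 on the minus strand. Capitals mark matches, on either strand, to the GC box GGGCGG, the CCAAT box CCAAT, the TATA box TATAAA, the ETS core CCGGAA or the TCF/LEF core CTTTGA.
Cav1: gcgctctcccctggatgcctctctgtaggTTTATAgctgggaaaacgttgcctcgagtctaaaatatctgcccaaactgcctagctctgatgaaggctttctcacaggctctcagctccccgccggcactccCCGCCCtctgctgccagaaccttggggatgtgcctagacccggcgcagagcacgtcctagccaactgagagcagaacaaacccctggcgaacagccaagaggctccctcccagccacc
Cav2: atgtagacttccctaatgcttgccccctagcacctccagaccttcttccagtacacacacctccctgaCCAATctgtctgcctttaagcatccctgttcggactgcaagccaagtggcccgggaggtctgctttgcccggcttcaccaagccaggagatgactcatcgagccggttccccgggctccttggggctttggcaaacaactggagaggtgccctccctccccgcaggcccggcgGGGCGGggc
Ehd2: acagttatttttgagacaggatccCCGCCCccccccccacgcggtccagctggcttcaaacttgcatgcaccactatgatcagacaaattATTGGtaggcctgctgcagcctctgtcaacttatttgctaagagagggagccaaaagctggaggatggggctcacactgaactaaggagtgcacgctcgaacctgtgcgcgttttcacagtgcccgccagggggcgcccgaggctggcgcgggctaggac
Mfsd2a: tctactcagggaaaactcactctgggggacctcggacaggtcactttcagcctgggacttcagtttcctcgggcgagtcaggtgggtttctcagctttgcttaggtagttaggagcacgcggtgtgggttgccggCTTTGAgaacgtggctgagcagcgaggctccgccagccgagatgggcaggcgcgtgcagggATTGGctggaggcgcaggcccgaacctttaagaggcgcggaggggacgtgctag

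Of 32851 mouse promoter windows of this length, 32.7% held the GC box, 33.8% the CCAAT box, 12.4% the TATA box, 12% the ETS core and 13.8% the TCF/LEF core. The Cav1 window held a GC box and a TATA box, and those of Cav2 and Ehd2 a GC box and a CCAAT box each. The Mfsd2a window held a CCAAT box and the TCF/LEF core. All 7 genes matched, with 10 windows in all. The TCF/LEF core stood in the Mfsd2a and Dnm2 windows, and the ETS core in none of the 10. A match of letters is a description, not a bound site. GC content was 59.6% for Cav1, 62% for Cav2, 58% for Ehd2 and 61.6% for Mfsd2a, against a median of 52.4% over all windows.

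Cells held 52819 to 2421434 read counts each, with medians per set of 757949, 713031 and 411397 in Young1, Young2 and AY_Y3. A cluster of 26 cells with 10 of 10 pericyte markers raised and another of 23 cells with 6 of 10 astrocyte markers raised were left out, which kept 696 endothelial cells. A marker counted as present at 10 CPM (counts scaled to a cell total of 1000000). Arterial-marker cells had Bmx or Gkn3 without Nr2f2 or Il1r1 (17.5% of the 696), venous-marker cells the reverse (20.98%), and capillary-marker cells had Cxcl12 or Rgcc and none of the other 4 (56.9%); 21 cells with arterial and venous markers and 11 with no marker entered no comparison. After thinning to 50000 counts, cells had a median of 1881.5 genes in the arterial-marker group, 2184 in the venous-marker group and 1540.5 in the capillary-marker group. Summed capillary markers of a wider list of 9 were at 17861 to 18476 CPM in venous-marker and 16459 to 18362 in capillary-marker cells. In arterial-marker cells they were at 6919.5 to 8957 CPM. A list of 16 venous markers, Nr2f2 and Il1r1 among them, was at 4475 to 5938 CPM in venous-marker and 1158 to 1581 in capillary-marker cells. Venous-marker cells thus differed from capillary-marker cells by venous markers and not by a lower capillary list. Summed pericyte markers were at 38.5 to 290 CPM in arterial-marker cells (6 of 10 at 0, Kcnj8, Vtn and Abcc9 among them), 548 to 904 CPM in venous-marker cells and 350 to 478 CPM in capillary-marker cells. Summed smooth muscle markers were at 237.4 to 365, 35.2 to 656 and 45.4 to 116.8 CPM in the same order, with 4 of 10 at 0 in arterial-marker cells, Tagln among them. Summed neuron markers were at 367 to 437, 5.32 to 25.4 and 42.5 to 91 CPM in that order, with 2 of 8 at 0 in arterial-marker cells. The neuron list holds Stmn2, which is also on the wider list of arterial markers, so its sum cannot be read as neuronal RNA alone. Astrocyte markers were at 101.3 to 160.2, 56.6 to 179.6 and 90.7 to 172.8 CPM. Summed oligodendrocyte markers differed between sets, at 46.3, 225.1 and 1151 CPM in endothelial cells of Young1, Young2 and AY_Y3. In capillary-marker cells they were at 41.3, 254.9 and 555.7 CPM in these sets. The part of the neuron and oligodendrocyte markers in the results was not tested.

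All 7 genes were detected in part of the endothelial cells of every set. The coat genes were the most often seen of the 6 caveolar genes: Cav1 had a count in 60.6% of 696 cells (exact Clopper-Pearson 95% interval 56.9 to 64.3%) and Cav2 in 69.8% (66.3 to 73.2%). Cav1 was found in 63.1% of Young1, 54.5% of Young2 and 64.4% of AY_Y3 cells, and the median over the cells with a count was 857, 725 and 868 CPM in these sets. Over all endothelial cells of these sets the median of Cav1 was 255.8, 53.05 and 397.1 CPM. Cells with a count spread widely, with an upper quartile 3.2 to 3.9 times the lower. Cav2 was found in 69.2%, 68.5% and 71.7% of cells, but its median over the cells with a count was 119.2 CPM in Young1, 384.7 in Young2 and 241.1 in AY_Y3. The sets were therefore alike in how often Cav2 was detected and unlike in its level where detected; with no condition between sets this was not tested. The intervals of Cav1 and Cav2 take the 696 pooled cells as independent and leave out the spread between sets. For Cav1, the shares of Young2 and AY_Y3 lay outside the interval. Reads without molecular identifiers are also not independent molecules.

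Among the genes of the caveolar neck, Ehd2 had a count in 43.5% of Young1, 45.96% of Young2 and 52.6% of AY_Y3 cells. Ehd4 had one in 32.2%, 30.2% and 46.96% of cells, and Dnm2 in 46.3%, 41.3% and 59.1%. Both were thus seen most often in AY_Y3, the set with the lowest depth. Endothelial cells of AY_Y3 also held the most genes after thinning to 50000 counts, a median of 1844 against 1566.5 in Young1 and 1667 in Young2. The part of this in the shares was not tested. Pacsin2 was the least often seen, in 23.4%, 24.7% and 24.7% of cells. Mfsd2a had a count in 52.3% of Young1, 48.5% of Young2 and 56.7% of AY_Y3 cells, with a median over those cells of 899, 592 and 957 CPM. With every cell thinned to 50000 counts, Mfsd2a was found in 50.5%, 45.1% and 55.1% of cells and Ehd4 in 28.04%, 24.7% and 44.1%. In the wells left out, Mfsd2a had a count in 53.8% of the 26 pericyte-cluster cells (392.5 CPM) and 65.2% of the 23 astrocyte-cluster cells (882 CPM), and Cav1 in 57.7% (435 CPM) and 56.5% (638 CPM). Summed endothelial markers were also high in the pericyte-cluster wells, at 4721 to 7856 CPM, against 9873 to 10389 CPM in the endothelial cells, so these shares do not come from wells free of endothelial RNA.

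Arterial-marker cells had more Ehd2, Ehd4 and Cav1 counts and fewer Mfsd2a counts than capillary-marker cells in every set, but none of the 7 genes passed the test at 3 sets (edgeR's quasi-likelihood test on counts summed per set, Benjamini-Hochberg adjusted p under 0.05). This test called 0.357% of the 8971 genes tested in this contrast, so a count of 0 among 7 is close to that background. In simulated sums it called none of the genes changed 2-fold, so a gene not called was not shown to be alike between the groups. At an unadjusted p under 0.05 there were 4 of the 7, against 8.27% of all genes. DESeq2 and limma on mean log2 values called 4 each, against 6.42% and 4.77% of all genes, edgeR on segment clusters named from a wider marker list 3, against 1.93%, and cells thinned to 50000 counts 2, against 1.89%.

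Mfsd2a stood at 437 CPM in Young1, 217.1 in Young2 and 341 in AY_Y3 arterial-marker cells, against 620, 573 and 893 CPM in the capillary-marker cells of these sets. Every arterial-marker value lay below every capillary-marker value. The log2 fold change was −1.05 ± 0.22 (SE, n = 3 sets), with edgeR adjusted p = 0.141 (0.00016 to 0.726 over 15 alternatives). In single cells, Mfsd2a had a count in 29.02 ± 1.5% of arterial-marker cells and 57.6 ± 6.0% of capillary-marker cells (mean ± SD, n = 3 sets). The share was lower with no overlap of the sets, as for 2.92% of all genes tested, while the median gene was seen in 3.48 percentage points more arterial-marker than capillary-marker cells. One cell supplied 43.5% of the Mfsd2a counts in the 23 arterial-marker cells of Young1, and without Young1 the fold change was −1.39 (adjusted p = 0.0593). Pericyte markers were lower in arterial-marker cells too; without the cells highest in mural markers the Mfsd2a fold change was −1.0.

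Among the coat genes, Cav1 was at 860, 670 and 894 CPM in arterial-marker cells of Young1, Young2 and AY_Y3, against 603, 398 and 604 CPM in capillary-marker cells. The sets did not overlap, and the log2 fold change was 0.65 ± 0.16 (edgeR adjusted p = 0.207; 0.0017 to 0.62 over 15 alternatives). Cav1 had a count in 70.3 ± 6.1% of arterial-marker and 51.6 ± 8.2% of capillary-marker cells. Cav2 was at 259.8, 541.5 and 182.2 CPM in arterial-marker cells, against 148.4, 304.9 and 194.1 CPM in capillary-marker cells, so that AY_Y3 ran the other way and the groups overlapped (0.59 ± 0.26, edgeR adjusted p = 0.636). Cav2 was seen in 80.3 ± 9.8% of arterial-marker and 63.6 ± 3.7% of capillary-marker cells.

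The neck ATPase genes lay furthest apart of the caveolar genes. Ehd2 was at 413, 478 and 383 CPM in arterial-marker cells of Young1, Young2 and AY_Y3, against 212.1, 177.2 and 180.1 CPM in capillary-marker cells, with no overlap (1.21 ± 0.30, edgeR adjusted p = 0.206; 0.000137 to 0.73 over 15 alternatives). It had a count in 72.97 ± 7.10% of arterial-marker and 37.2 ± 3.7% of capillary-marker cells. Ehd4 was at 370, 236.4 and 519 CPM in arterial-marker cells, against 234.1, 56.8 and 132.4 CPM in capillary-marker cells (1.58 ± 0.32, edgeR adjusted p = 0.14; 8.21e-06 to 0.703 over 15 alternatives). The Ehd4 ranges touched closely: the lowest arterial-marker set lay just above the highest capillary-marker set, and 1 cell supplied 56.3% of the Ehd4 counts of arterial-marker cells in Young1. Without Young1 the Ehd4 fold change was 2.02. Pacsin2 (0.42 ± 0.33, edgeR adjusted p = 0.838) and Dnm2 (0.23 ± 0.26, edgeR adjusted p = 0.892) overlapped between the groups. Without the cells highest in mural markers the fold changes were 0.66 for Cav1, 1.22 for Ehd2 and 1.61 for Ehd4.

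**Figure D1:**
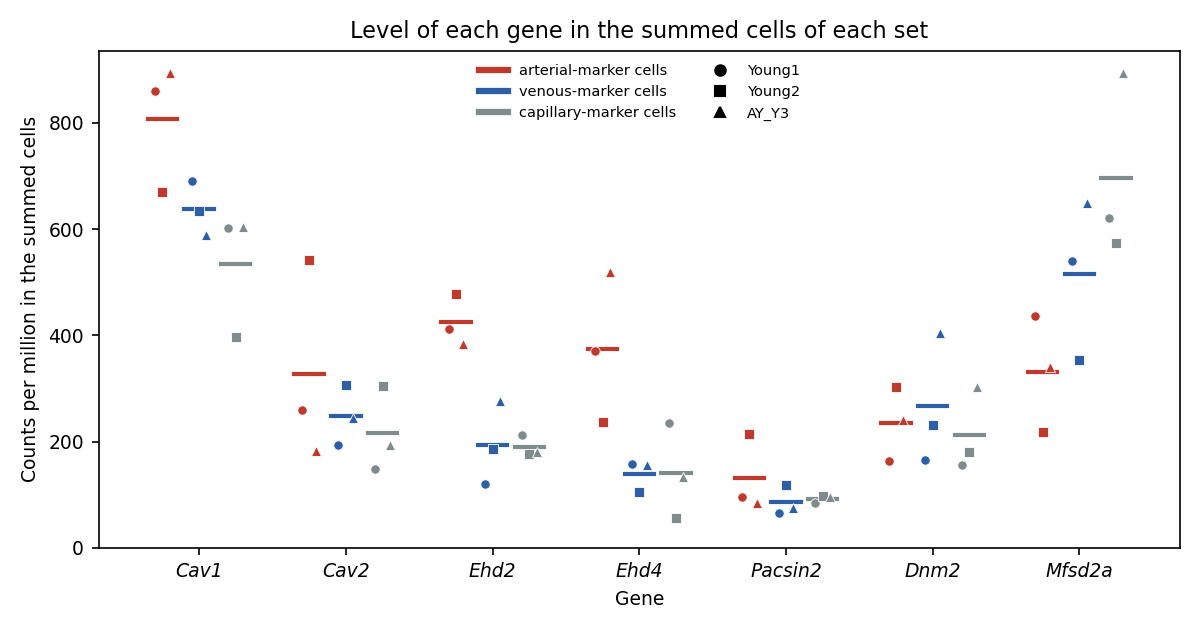
Level of each gene in CPM of the summed cells (y axis, linear from 0) for arterial-marker, venous-marker and capillary-marker cells; each point is 1 set and each short line the mean of 3 sets. Ehd2 and Ehd4 lie highest in arterial-marker cells and Mfsd2a highest in capillary-marker cells in each set, while none of the differences passed the test.

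Over the 6 caveolar genes the median log2 fold change between arterial-marker and capillary-marker cells was 0.62, beside −0.07 over all genes tested. In summed CPM, 3 of the 7 genes lay above with no overlap of the sets (6.55% of all genes tested) and 1 below (9.35%). In the share of cells with a count, 5 lay above (21.7% of all genes tested) and 1 below (2.92%). A higher share in arterial-marker cells was thus common among all genes, and those cells also held more genes each; a lower share, as for Mfsd2a, was not common.

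**Figure D2:**
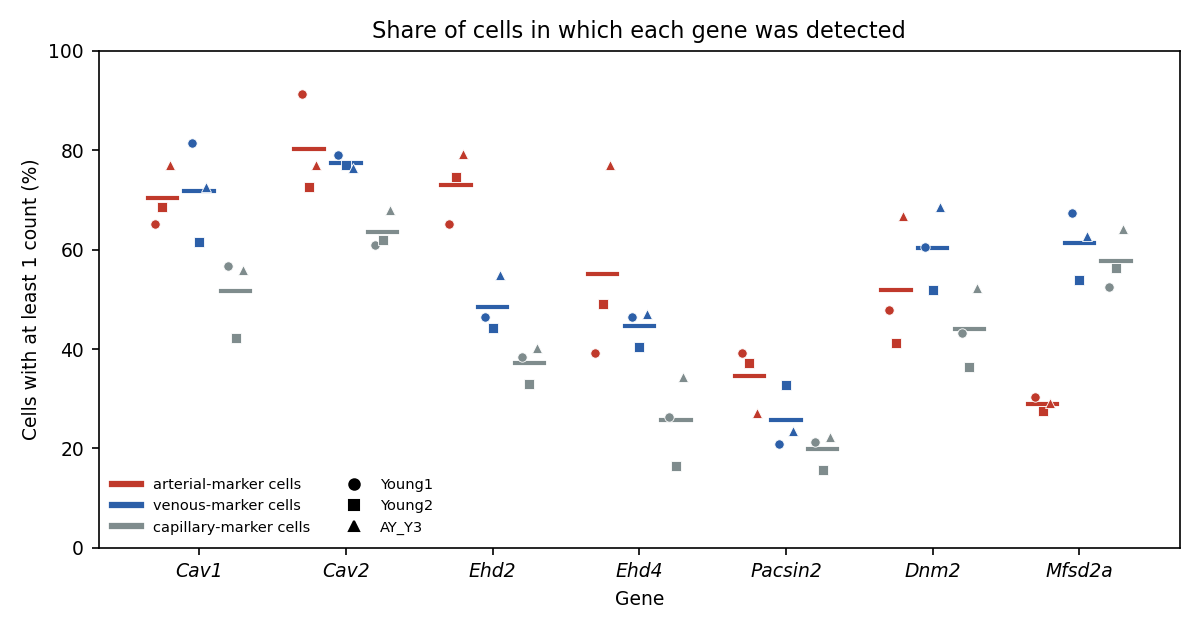
Share of cells with at least 1 count of each gene (y axis, percent) in arterial-marker, venous-marker and capillary-marker cells; each point is 1 set and each short line the mean of 3 sets. Mfsd2a was seen in 27.5 to 30.4% of arterial-marker cells, below every venous-marker and capillary-marker value, and Ehd2 in 65.2 to 79.2%, above every other group.

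Between venous-marker and capillary-marker cells none of the 7 genes passed edgeR's test, which called 0.078% of all genes. None of the 7 had an unadjusted p under 0.05 (4.34% of all genes did), DESeq2 called none of them (2.11% of all genes), and limma on mean log2 values called 1, Cav1 (adjusted p = 0.0472; 4.33% of all genes). In summed CPM no gene of the 7 was free of overlap, against 6.69% of all genes above and 6.55% below. Mfsd2a was at 540, 354 and 650 CPM in venous-marker cells of Young1, Young2 and AY_Y3, against 620, 573 and 893 CPM in capillary-marker cells (−0.48 ± 0.22, edgeR adjusted p = 0.9998). Each set had its lower value in venous-marker cells, yet Mfsd2a had a count in 61.3 ± 6.9% of venous-marker and 57.6 ± 6.0% of capillary-marker cells. The median gene was seen in 7.39 percentage points more venous-marker than capillary-marker cells, above the 3.72 points of Mfsd2a. Cav1 was at 690, 633 and 588 CPM in venous-marker cells, against 603, 398 and 604 CPM in capillary-marker cells (0.27 ± 0.16, edgeR adjusted p = 0.9998). In the share of cells, Cav1, Cav2, Ehd2 and Ehd4 lay above in venous-marker cells with no overlap, as did 46.4% of all genes tested, so these 4 shares are near the background. None lay below, against 0.769% of all genes.

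Between arterial-marker and venous-marker cells, Ehd2 and Ehd4 lay apart in summed CPM and Ehd2 and Mfsd2a in the share of cells. None of the 7 was called, against 1.98% of all genes; 4 had an unadjusted p under 0.05 (12.5% of all genes), and DESeq2, limma and thinned cells called 2 each (10.7%, 10.5% and 4.47% of all genes). Ehd4 came nearest, at 370, 236.4 and 519 CPM in arterial-marker cells against 157.3, 105.02 and 155.2 CPM in venous-marker cells (1.44 ± 0.32, edgeR adjusted p = 0.0857), and with the left-out clusters added its adjusted p was 0.0329. Ehd2 was at 413, 478 and 383 CPM in arterial-marker cells against 120.8, 185.7 and 276.7 CPM in venous-marker cells (1.22 ± 0.30, edgeR adjusted p = 0.119). Both had no overlap of the sets in CPM, as 7.65% of all genes did in this direction and 10.2% in the other, and Ehd2 had none in the share of cells, as 4.53% of all genes did. Mfsd2a was at 437, 217.1 and 341 CPM in arterial-marker cells against 540, 354 and 650 CPM in venous-marker cells, with overlap (−0.57 ± 0.22, edgeR adjusted p = 0.34), while its share of cells, 29.02 ± 1.5% against 61.3 ± 6.9%, did not overlap, as for 18.4% of all genes in that direction. Cav1 (0.38 ± 0.16, edgeR adjusted p = 0.398), Cav2 (0.35 ± 0.26, edgeR adjusted p = 0.672), Pacsin2 (0.59 ± 0.33, edgeR adjusted p = 0.53) and Dnm2 (−0.05 ± 0.26, edgeR adjusted p = 0.96) overlapped.

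Taken marker by marker, Mfsd2a was found less often with either arterial marker and more often with either capillary marker in 3 of 3 sets. With Bmx, an arterial kinase gene, Mfsd2a had a count in 29.8 ± 3.8% of cells, against 57.9 ± 4.8% without it (mean ± SD, n = 3 sets). With Gkn3, a gastrokine gene of brain arteries, it had one in 4 of 8 Young1 cells, 38.5% of Young2 and 22.7% of AY_Y3 cells, against 52.4%, 49.8% and 60% without it. The Gkn3 difference in share was thus large in 1 set and small in another. With Cxcl12, a chemokine gene, Mfsd2a had a count in 55.3 ± 4.3% of cells, against 34.3 ± 4.1% without it. With Rgcc, a cell cycle regulator gene, it had one in 58.1 ± 5.0%, against 40.03 ± 7.71%. Few cells lacked Cxcl12: 33, 26 and 31 in Young1, Young2 and AY_Y3. Cxcl12 had a count in 82.5 ± 8.2% of arterial-marker, 80.4 ± 7.4% of venous-marker and 94.7 ± 1.0% of capillary-marker cells. Cells with it are thus not capillary cells alone. Mean Mfsd2a per cell was 279.7 ± 131.2 CPM with Bmx against 636.1 ± 159.9 without, and 603.2 ± 147.01 CPM with Cxcl12 against 299 ± 115.9 without.

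The venous markers split share from level. With Nr2f2, the venous transcription factor gene, Mfsd2a had a count in 60.9 ± 8.4% of cells, against 50.9 ± 3.6% without it, but its mean was 498.5 ± 157.9 CPM against 576.5 ± 135.7. With Il1r1, the interleukin 1 receptor gene, the share was 58.8 ± 8.4% against 51.5 ± 4.0%, and the mean 431.8 ± 117.1 CPM against 591.7 ± 157.4. In 3 of 3 sets the share was higher and the mean lower with each venous marker. Venous-marker cells also held more genes each, and the part of this in the share was not tested. Over the cells with none (529), 1 or both (63) venous markers, Mfsd2a was found in 50.7%, 57.7% and 60.3% of cells at a mean of 593, 517 and 407 CPM. These values pool the sets; in Young2 alone the shares were 47.4%, 54.1% and 47.8% and the means 451, 295 and 334 CPM, with no steady course.

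Cav1, Ehd2 and Ehd4 had higher means with Bmx and with Gkn3 in 3 of 3 sets. Cav1 had a mean of 1136 ± 282 CPM in Gkn3 cells against 575 ± 75 CPM in the others, and 784 ± 82 CPM in Bmx cells against 571 ± 89. Ehd2 had 501.5 ± 35.1 CPM with Gkn3 against 211.96 ± 22.1 without, and 440.7 ± 57.8 CPM with Bmx against 190.7 ± 20.9. Ehd4 had 687.9, 285.5 and 665.0 CPM with Gkn3 in Young1, Young2 and AY_Y3 against 167.7, 104.04 and 168.4 CPM without, a wide spread between sets. Over the 553, 97 and 46 cells with none, 1 or both arterial markers, the mean of Cav1 was 563, 700 and 1046 CPM, of Ehd2 182.1, 423.4 and 483.7 CPM, of Ehd4 129.9, 281.1 and 491.9 CPM and of Mfsd2a 644.9, 293.7 and 175.4 CPM. These means pool the sets, and within sets the steps were uneven. Cells with both arterial markers were few: 6 in Young1, 20 in Young2 and 20 in AY_Y3. Cav1 had 642.5, 587.4 and 1465.7 CPM in Young1, 452, 758.2 and 743.6 CPM in Young2 and 587.7, 699.6 and 1222.9 CPM in AY_Y3, and Ehd4 had 170.2, 159.7 and 811.2 CPM, 84.6, 278.4 and 170.7 CPM, and 132.04, 347.7 and 717.3 CPM in these sets. Cav1 and Ehd4 thus stepped up at each marker in AY_Y3 alone, while Ehd2 was higher and Mfsd2a lower with 1 and with both markers than with none in every set. Cav2 and Pacsin2 had higher means in 2 of 3 sets with Bmx and with Gkn3; in AY_Y3 Cav2 was at 178.2 CPM with Bmx against 241.4 without, and Pacsin2 at 73.3 against 99.5 CPM. Dnm2 ran differently: with Gkn3 its mean was 153.3 ± 12.3 CPM against 223.4 ± 58.2 without, lower in 3 of 3 sets, and with Bmx 221.9 ± 35.1 CPM against 217.3 ± 66.9. Ehd2 was found less often with each capillary marker in 3 of 3 sets, in 46.3 ± 4.3% of Cxcl12 cells against 54.3 ± 8.9% without and 43.9 ± 5.8% of Rgcc cells against 54.5 ± 5.8%.

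**Figure D3:**
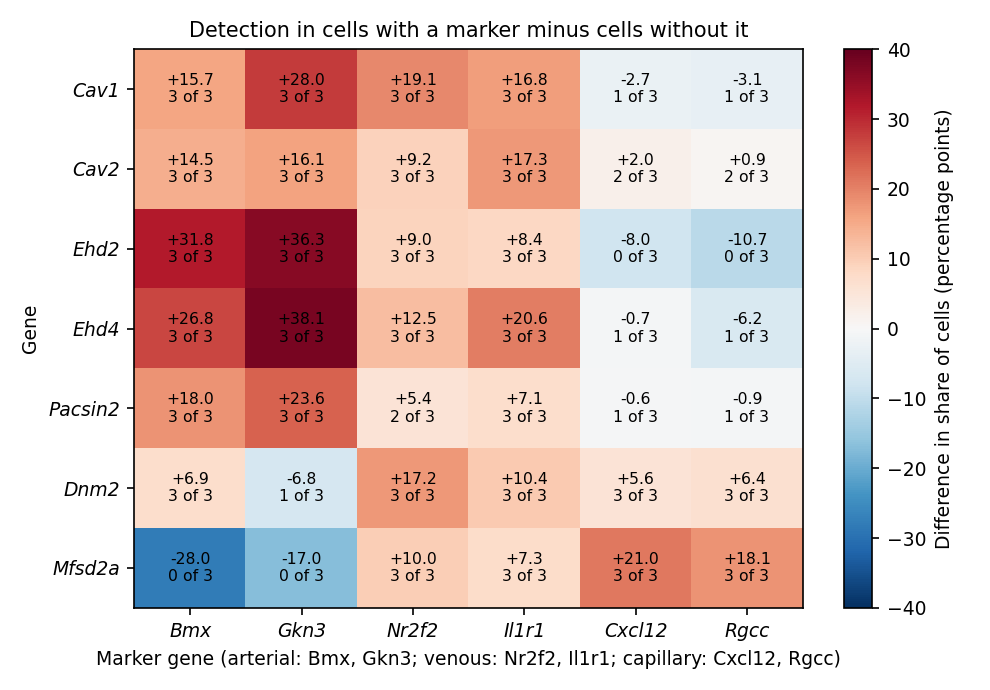
Difference in the share of cells with a count of each gene (rows) between endothelial cells with and without each marker (columns), in percentage points as the mean of 3 sets, with the number of sets in which the share was higher with the marker. The highest value is 38.1 for Ehd4 with Gkn3 and the lowest −28.02 for Mfsd2a with Bmx.

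Cell by cell, Mfsd2a and Cav1 were far from exclusive: Cav1 was lower in mean level in cells with Mfsd2a, while its share of cells depended on depth and set. Of 696 endothelial cells, 30.3% had counts of both genes, 22.3% of Mfsd2a alone, 30.3% of Cav1 alone and 17.1% of neither. For cells with both, the product of their shares gives 31.9%. Cav1 had a count in 60.7% of cells with Mfsd2a and 65.7% of cells without it in Young1, in 52.6% and 56.2% in Young2, and in 59.3% and 71.03% in AY_Y3. With every cell thinned to 50000 counts the difference in share was 0.769 percentage points in Young1, −0.995 in Young2 and −14.1 in AY_Y3, so at equal depth it rested on AY_Y3. Its mean level differed more: 555 CPM with Mfsd2a against 776 CPM without in Young1, 399 against 649 CPM in Young2 and 508 against 851 CPM in AY_Y3. The mean was lower in cells with Mfsd2a in 3 of 3 sets.

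The Spearman correlation of log2(CPM + 1) between Mfsd2a and Cav1 was −0.0869 in Young1, −0.0719 in Young2 and −0.266 in AY_Y3 (696 cells in all, 30.7%, 33.8% and 35.5% of them in these sets), with a mean of −0.142. AY_Y3 carried much of it, and without that set the mean was −0.0794. Cells of a set share library preparation, and genes share each cell's depth, so these values are a description only. Within capillary-marker cells the correlation was −0.0599 in Young1, −0.0564 in Young2 and −0.244 in AY_Y3, with a mean of −0.12. The mean was −0.325 in arterial-marker cells and 0.0848 in venous-marker cells. Among cells with a count of both genes it was 0.0679 and its sign differed between sets (−0.0991 to 0.183).

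**Figure D4:**
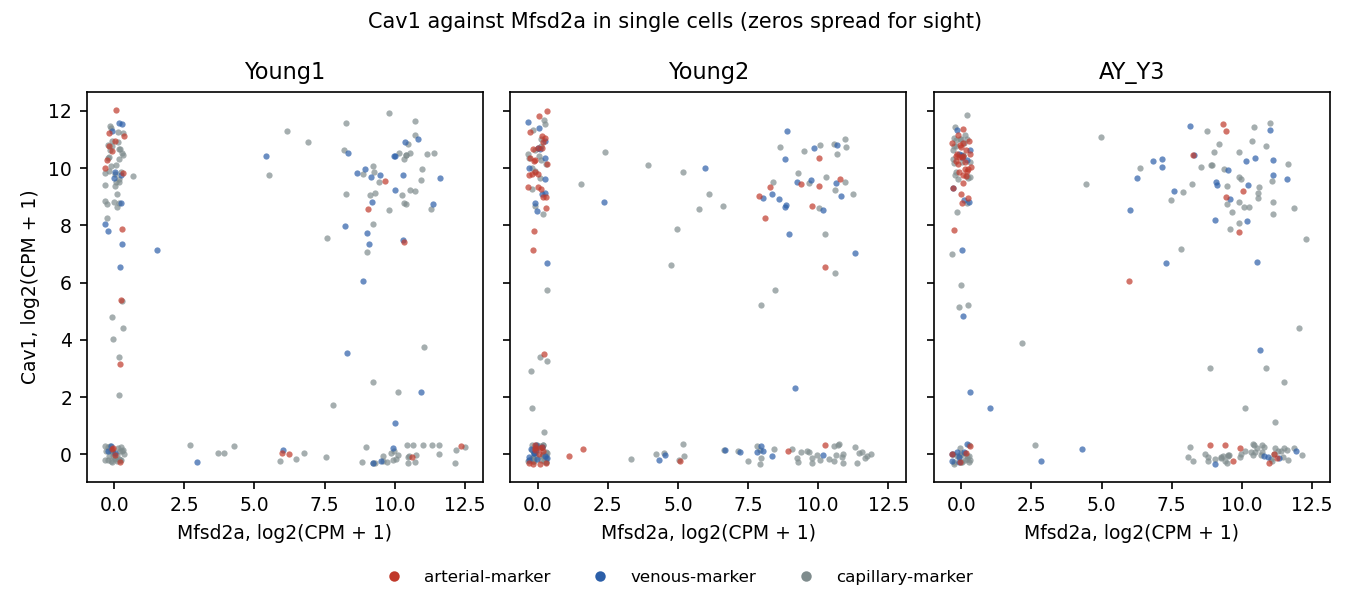
Cav1 (y axis) against Mfsd2a (x axis) in single cells of the 3 marker groups, a panel per set, both as log2(CPM + 1), coloured by marker group; cells at 0 are spread by a small random shift. Cells with both genes, with either alone and with neither occur in each set, and cells with both hold high levels of each.

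Of the 21 pairs of the 7 genes, Mfsd2a and Cav1 had the lowest mean correlation and Mfsd2a and Ehd2 the next (−0.139, from −0.205 to −0.0744). Mfsd2a was below 0 with 5 of the 6 caveolar genes on average, though near 0 with Cav2 (−0.0328), Pacsin2 (−0.028) and Ehd4 (−0.0559). With Dnm2 it was above 0 (0.0608), and Dnm2 had a count in 55.5% of cells with Mfsd2a against 42.1% of cells without it, higher in 3 of 3 sets. The coat genes Cav1 and Cav2 had the highest correlation, 0.254 in Young1, 0.126 in Young2 and 0.249 in AY_Y3, and Ehd2 and Ehd4 the next, 0.178, 0.191 and 0.233. Cav1 with Ehd2 averaged 0.174 and Ehd2 with Pacsin2 0.171. Over genes found that widely, a caveolar gene's middle correlation was 0.0445 (Dnm2) to 0.056 (Cav2), so low positive pairs lie near that background. Dnm2 was the loosest of the caveolar genes, with means from −0.0342 to 0.0723 against the other 5. All of these are weak, and each caveolar gene also correlated with the number of genes seen in a cell (0.136 to 0.353 over genes and sets), while Mfsd2a hardly did (0.0142 to 0.047).

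**Figure D5:**
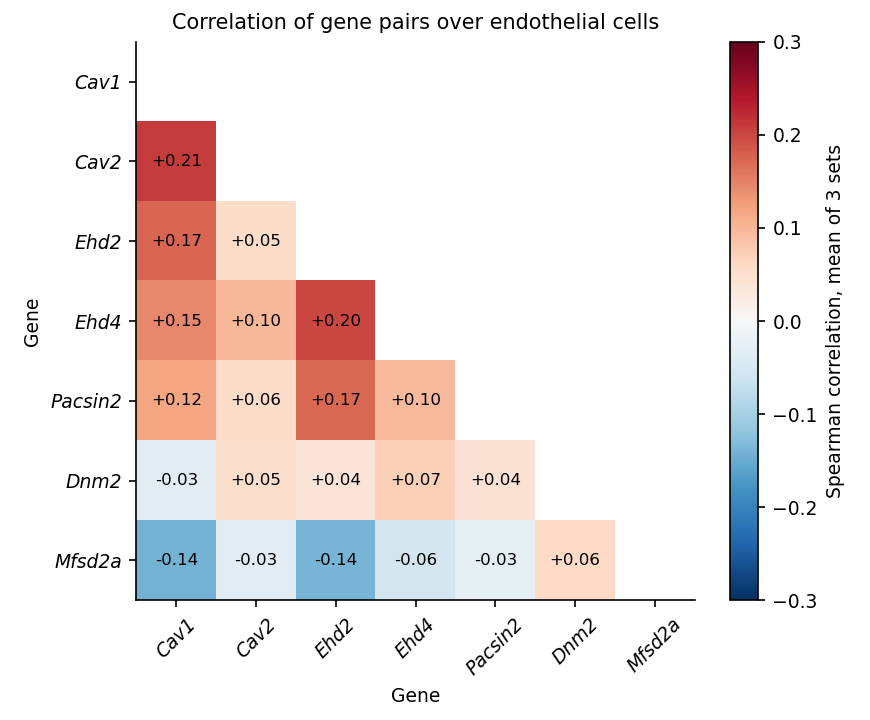
Spearman correlation of log2(CPM + 1) for each of the 21 gene pairs over endothelial cells, as the mean of 3 sets. Cav1 with Cav2 is highest (0.21) and Mfsd2a with Cav1 lowest (−0.14).

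Among 2675 genes found in 25% or more of the cells in every set, those most like Mfsd2a over cells, by the median Spearman correlation of the 3 sets, were Slco1a4, an organic anion transporter gene (0.387), Gatm, of creatine synthesis (0.386), Slc22a8, another organic anion transporter gene (0.366), Bsg, basigin (0.364), and Slc7a5, the large neutral amino acid transporter gene (0.352). Those least like it were Cd9, a tetraspanin gene (−0.333), Cdk19, a Mediator kinase gene (−0.287), Ccnd2, cyclin D2 (−0.251), Amd1, of polyamine synthesis (−0.25), and Alpl, alkaline phosphatase (−0.245). Set against these, Cav1 was a weak opposite of Mfsd2a.

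The genes most like Cav1 were Cdk19 (0.26), Amd1 (0.258), its coat partner Cav2 (0.249), Cyb5r3, a cytochrome b5 reductase gene (0.236), and Plec, plectin (0.224). Those least like it were Slco1a4 (−0.246), Ctla2a (−0.202), Pglyrp1, a peptidoglycan recognition protein gene (−0.199), Bsg (−0.189) and Igf1r, the insulin-like growth factor receptor gene (−0.186). Cdk19 and Amd1 were thus near the top for Cav1 and near the bottom for Mfsd2a, and Slco1a4 and Bsg the reverse. Mfsd2a itself ranked 2619 of 2674 for Cav1. For Cav2 the highest were Cav1 (0.249), Serinc3 (0.228) and Scamp1 (0.208). For Ehd2 they were Amd1 (0.312), Ccnd2 (0.286) and Cd9 (0.278), and for Ehd4 Gpi1 (0.255), Vwf (0.225) and Tmem176b (0.224). For Pacsin2, itself under the 25% limit, they were Dap (0.223), Ap2b1, a clathrin adaptor gene (0.22), and Ehd2 (0.217), and for Dnm2 Slc35a4 (0.183), Bmp2k (0.181) and Syne2 (0.18). Amd1 has near-identical copies in the genome, so its counts are uncertain.

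Other caveolar genes were read from a list of 24 symbols, of which 15 were tested. Between arterial-marker and venous-marker cells 2 of the 15 rose and none fell, where 1.98% of all genes were called. None passed against capillary-marker cells, for arterial-marker cells (0.357% of all genes called) or venous-marker cells (0.078%). Prkcdbp, the coat gene cavin 3, was at 307 ± 41 CPM in arterial-marker and 147.8 ± 28.6 CPM in venous-marker cells (1.12 ± 0.20, edgeR adjusted p = 0.0427; 0.165 without Young1, 0.224 without Young2, 0.358 without AY_Y3). Acvrl1, the BMP9 receptor gene ALK1, was at 993.2 ± 103.8 CPM in arterial-marker and 541.2 ± 107.8 CPM in venous-marker cells (0.95 ± 0.15, edgeR adjusted p = 0.027; 0.123 without Young1, 0.172 without Young2, 0.287 without AY_Y3). The median log2 fold change of the list in that contrast was 0.30, beside −0.07 over all genes. Against capillary-marker cells, arterial-marker cells held Ptrf, cavin 1, at 2513 ± 522.8 against 1862 ± 104.4 CPM (0.47 ± 0.15, edgeR adjusted p = 0.377), Sdpr, cavin 2, at 772 ± 140 against 657 ± 64 CPM (0.27 ± 0.13, edgeR adjusted p = 0.686) and Vamp3 at 402 ± 30 against 357 ± 39 CPM (0.22 ± 0.16, edgeR adjusted p = 0.82). Plvap, a diaphragm gene, had too few counts to be tested.

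Of 23 genes of clathrin-mediated endocytosis 22 were tested, and none passed in any of the 3 contrasts. Of all genes, 0.357% were called between arterial-marker and capillary-marker, 0.078% between venous-marker and capillary-marker and 1.98% between arterial-marker and venous-marker cells. None among 22 is thus close to the background. The median log2 fold change of the list between arterial-marker and capillary-marker cells was −0.15, beside −0.07 over all genes. Hspa8, the uncoating chaperone gene, was at 2183 ± 219.4 CPM in arterial-marker and 2504 ± 548.1 CPM in capillary-marker cells (−0.13 ± 0.13). Cltb, clathrin light chain, was at 451.1 ± 111.1 against 305.9 ± 54.9 CPM (0.60 ± 0.21), Ap2m1, an adaptor subunit, at 311.3 ± 104.4 against 333.9 ± 22 CPM (−0.09 ± 0.25) and Hip1 at 178.5 ± 111.5 against 239.8 ± 44.8 CPM (−0.52 ± 0.38), with edgeR adjusted p from 0.426 for Cltb to 0.964 for Ap2m1.

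Of 20 lipid uptake genes 14 were tested, and those that passed were lower in arterial-marker cells, as Mfsd2a was in its values. Abcg1, a sterol exporter gene, fell to 2.005 ± 1.389 CPM in arterial-marker cells, against 92.3 ± 36.3 CPM in capillary-marker and 97.9 ± 33.8 CPM in venous-marker cells (−5.67 ± 0.64 and −5.72 ± 0.64, edgeR adjusted p = 0.019 and 0.00651). Without Young1, Young2 or AY_Y3 its adjusted p was 0.0575, 0.368 and 0.381 against capillary-marker cells and 0.0199, 0.132 and 0.125 against venous-marker cells. Pltp, the phospholipid transfer protein gene, was lower in arterial-marker than in venous-marker cells, with 2990 ± 394 against 4680 ± 382 CPM (−0.60 ± 0.10, edgeR adjusted p = 0.0254, and 0.294 or 0.306 when Young2 or AY_Y3 was left out). Against capillary-marker cells 1 of the 14 fell and none rose (0.357% of all genes were called), with a median of −0.08 beside −0.07 over all genes. Scarb1, a lipoprotein receptor gene, was at 221.5 ± 89.3 CPM in arterial-marker and 375.3 ± 82.2 CPM in capillary-marker cells (−0.78 ± 0.25, edgeR adjusted p = 0.379), Lrp8 at 21.3 ± 16.6 against 133.5 ± 42.5 CPM (−2.88 ± 0.80, edgeR adjusted p = 0.279) and Lpcat3, of phospholipid remodelling, at 97.02 ± 34.3 against 104.7 ± 36.4 CPM (−0.05 ± 0.30, edgeR adjusted p = 0.99).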

How the data were processed

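The deposited values were whole-number read counts per gene symbol and cell, made by the authors and not normalized; the submitters' processing notes name Bowtie 0.12.2 and the builds mm8 and mm10 and do not say how each was used. How reads were counted, and whether by strand, is not given in the sources used here, so Dnm2 reads cannot be told from those of Tmed1, which overlaps it on the other strand, nor Pacsin2 reads from its pseudogene neighbour Gm5417 (49 counts). The gate used in FACS is also not given there. The 7 members, the gene lists and the marker genes were chosen with earlier results of these data known.

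All cells had at least 500 genes and 50000 counts. Cells were clustered on 2000 variable genes (10 components, 15 neighbours, Leiden resolution 1; leidenalg 0.10.2, scikit-learn 1.9.0, Python 3.11.15); no doublet caller was run. Cells are not replicates: counts were summed per set and marker group, and the 9 sums entered edgeR's quasi-likelihood model (edgeR 4.0.16, R 4.3.3), with TMM and the set as a block, leaving 4 residual degrees of freedom. Genes passed edgeR's default filter with a count in at least 5% of cells, and the 6 gate markers were left out. Set names, not numbers, gave the block: each marker group came from each set. The test was run first on simulated counts, with some genes changed in the arterial-marker sums. At a true 2-fold change it called 0 of 50 raised and 0 of 48 lowered genes. At a 4-fold change it called 10% of the raised and 4% of the lowered genes, and with no change 0 of 8731. DESeq2 1.42.0 and limma 3.58.1 (log2(CPM + 1)) were alternatives. Genes were named by a rule: the members, list genes that passed and up to 4 others per list with the most counts, and the genes of highest and lowest correlation.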

Additional observations from a re-analysis of the deposited data

Results flagged for a closer look

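Splitting cells by Mfsd2a gave opposite directions for Cav1, Cav2 and Ehd4 in different marker groups, in every set; the difference between the groups was not tested. In arterial-marker cells the share with Cav1 was lower with Mfsd2a than without it in 3 of 3 sets, by −25.5 percentage points on average (42.9% against 75% in Young1, 64.3% against 70.3% in Young2 and 50% against 88.2% in AY_Y3). In venous-marker cells it was higher with Mfsd2a, by 10.95 points (82.8% against 78.6%, 67.9% against 54.2% and 78.1% against 63.2%), and in capillary-marker cells lower, by −6.01 points. Cav2 had the same split, with −12.5 points in arterial-marker and 9.24 points in venous-marker cells. Ehd4 ran the other way: it was seen more often with Mfsd2a in arterial-marker cells, by 19.4 points, and less often in capillary-marker cells, by −3.26 points. Only 7, 14 and 14 arterial-marker cells of Young1, Young2 and AY_Y3 had Mfsd2a. With cells thinned to 50000 counts, the Cav1 difference in Young2 arterial-marker cells was 16.8 points, the Cav2 differences in Young1 and Young2 were 4.46 and 5.23 points, and the Cav1 differences in capillary-marker cells of Young1 and Young2 were 0.684 and 2.22 points, so these 3 patterns did not hold in every set, while the Ehd4 pattern did.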

How the results depend on the processing

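The signs of Cav1, Cav2, Ehd2, Ehd4 and Mfsd2a between arterial-marker and capillary-marker cells were kept under all 15 alternatives, but their calls were not. Of the 7 genes, DESeq2 and limma on mean log2(CPM + 1) of single cells, whose values are differences on that scale, each called 4 in this contrast, clusters on a wider marker list 3 and cells thinned to 50000 counts 2. The values then past the threshold were 0.67 (DESeq2) and 2.12 (limma) for Cav1; 1.23 (DESeq2), 1.63 (clusters) and 3.49 (limma) for Ehd2; 1.60 (DESeq2), 1.57 (clusters), 1.60 (thinned) and 2.91 (limma) for Ehd4; and −1.02 (DESeq2), −1.58 (clusters), −1.26 (thinned) and −2.76 (limma) for Mfsd2a. Between arterial-marker and venous-marker cells DESeq2, thinned cells and limma called 2 each and all cells 1; between venous-marker and capillary-marker cells limma called 1.

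The share of genes tested that was called, 0.357%, 0.078% and 1.98% between arterial-marker and capillary-marker, venous-marker and capillary-marker, and arterial-marker and venous-marker cells, was 6.42%, 2.11% and 10.7% with DESeq2, 4.77%, 4.33% and 10.5% with limma, 1.89%, 0.186% and 4.47% thinned, and 0.097%, 0.0102% and 0.521% with no filter on low counts. Clusters on the wider list gave 1.93% and 0% in the first 2 contrasts, the highest marker pair 0.12% and 0.0219%. In the venous-marker and capillary-marker contrast, the share was 0.0111% with markers at any count, 0.0445% at 50 CPM, 0.0446% without the cells highest in astrocyte markers and 0.201% with no replicate block. The block moved no other count of genes by over 1.5 times and no call of the 7 genes. Leaving out 1 set gave 0 to 0.209%, 0 to 0.077% and 0 to 1.21%, with 0 of the 7 genes each time, and log2 fold changes of 0.62 to 0.69 for Cav1, 1.11 to 1.28 for Ehd2, 1.36 to 2.02 for Ehd4 and −1.39 to −0.85 for Mfsd2a against capillary-marker cells. The correlation of Mfsd2a and Cav1 was −0.177 to −0.0794 with 1 set left out and 0.0679 in cells with both genes. The use of all cells and the removal of cells highest in astrocyte markers were chosen after seeing the data.

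Some signs turned. Ehd2 between venous-marker and capillary-marker cells (−0.02) was 0.03 with no replicate block, −0.38 to 0.34 with 1 set left out, 0.00 at any count, 0.16 by the highest pair, 0.36 by clusters, 0.09 without mural-high cells, 0.03 thinned, 0.83 by limma and 0.04 without astrocyte-high cells. Ehd4 there (0.14) was −0.03 with no replicate block, −0.22 to 0.55 with 1 set left out, −0.04 by the highest pair and −0.01 with all cells, and Pacsin2 there (−0.18) was 0.30 by limma. Dnm2 in arterial-marker cells, with 1 set left out, was −0.03 to 0.47 against capillary-marker (0.23) and −0.28 to 0.27 against venous-marker cells (−0.05), and in the second of these also 0.05 at 50 CPM, 0.19 by clusters and 0.07 without astrocyte-high cells. Between arterial-marker and capillary-marker cells, Pacsin2 (0.42) was −0.04, Vamp3 (0.22) −0.08, Hip1 (−0.52) 0.17 and Lpcat3 (−0.05) 0.12 by the highest pair. With 1 set left out Ap2m1 (−0.09) was −0.25 to 0.16, Hspa8 (−0.13) −0.29 to 0.01 and Lpcat3 −0.21 to 0.14. Ap2m1 was also 0.04 at any count, 0.04 thinned and 1.02 by limma, Hspa8 0.00 by limma, and Lpcat3 0.33 by clusters, 0.03 without mural-high cells and 0.12 by limma. The cause was not tested.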

Other observations

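The number of caveolar genes seen in a cell varied with the marker group. Of the 6 genes, arterial-marker cells had a mean of 3.68, venous-marker cells of 3.28 and capillary-marker cells of 2.43; thinned to 50000 counts the means were 3.50, 3.06 and 2.19. The median number of all genes per thinned cell was 1881.5, 2184 and 1540.5 in these groups, and its part in the difference was not tested. In venous-marker cells the mean was 3.54 in cells with Mfsd2a and 2.88 in cells without it, higher in 3 of 3 sets; in capillary-marker cells it was 2.36, 1.99 and 2.83 with Mfsd2a in Young1, Young2 and AY_Y3, against 2.58, 2.15 and 2.56 without it.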
